A study of Homo sapiens with 24 samples.

Results

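The genes described here encode 10 factors that cut nuclear pre-mRNA at its 3′ end and add the poly(A) tail, namely NUDT21, CPSF6, CPSF7, CPSF3, CSTF2, CSTF3, PCF11, FIP1L1, PAPOLA and PABPN1. They were chosen by name, as the rows of the read count table with these symbols, and all 10 of the 10 were found among 23354 genes. All 10 passed the filter on low counts in both cell lines, with 12800 genes tested for MV4-11 and 12711 for KG-1a. MV4-11 and KG-1a are human acute myeloid leukemia (AML) cell lines labelled wild type (WT) in the sample labels. Cells received 1 µM 8-chloro-adenosine (8CA), 1 µM 8-amino-adenosine (8AA) or no treatment, and total RNA was taken at 8 h or 24 h. This gave 12 groups of 2 libraries, 24 libraries in all. The labels name no vehicle for the untreated cells, and do not say whether the libraries of a group came from separate cultures, so the p-values measure the spread between these libraries, which may be technical.

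Nearly every human mRNA ends in a poly(A) tail that is made in a cut-and-extend reaction. The cleavage and polyadenylation specificity factor (CPSF) reads the AAUAAA signal and its subunit CPSF3 cuts the RNA, while the cleavage stimulation factor (CstF) binds downstream of the cut through CSTF2, on the scaffold CSTF3. Cleavage factor I (CFIm), made of NUDT21 with CPSF6 or CPSF7, binds UGUA upstream and favors distal sites. Cleavage factor II, which holds PCF11, links the cut to release of RNA polymerase II. FIP1L1 joins CPSF to the polymerase PAPOLA, and PABPN1 coats the growing tail. 8CA and 8AA are adenosine analogs that differ in the group on carbon 8 of the base, a chlorine or an amino group. ATP analogs modified at this carbon have been described as inhibitors and chain terminators of poly(A) polymerase in vitro.

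Most mRNAs of these factors carry the sequences that the factors read. The annotated mRNA ends below are those of some of the members that have the signal bound by CPSF. They show the signal and the bases up to the cut. PCF11, which lacks the signal there, is not shown. Each line runs 5′ to 3′ from the signal to the last annotated base, with the hexamer AATAAA in capitals. The windows lie at chr14:96567091-96567111 on the plus strand for PAPOLA, chr2:9473074-9473101 on the plus strand for CPSF3, chr11:33084584-33084603 on the minus strand for CSTF3, chr16:56429133-56429155 on the minus strand for NUDT21 and chr14:23326156-23326185 on the plus strand for PABPN1, all in GRCh38.
PAPOLA: AATAAAaaaaaaacagcacaa
CPSF3: AATAAAatgcattcgtttctctggggga
CSTF3: AATAAAaggattcagaaaca
NUDT21: AATAAAaaatatttgaaagagaa
PABPN1: AATAAAaattgtttggccttttgggtgtaa
The last 50 bases of the transcript held AATAAA on the transcript's strand in 9 of the 10 members, as in 59.8% of 19565 protein-coding genes. PCF11 was the exception, with neither AATAAA nor ATTAAA in that window, and either hexamer was found in 73.1% of genes. The motif TGTA, which CFIm binds as UGUA in RNA, was found on the same strand in the last 100 bases of all 10 members and of 50.6% of genes. PAPOLA had 4 copies, CPSF7 and CSTF3 had 2 each and the other members had 1 each. These letter matches describe the annotation and are not measurements of site use. The gene counts used below add all mRNA ends of a gene and cannot show which site was used.

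Library totals ran from 18633963 to 24520078 counts. Of 4 genes listed as markers of MV4-11, FLT3, CSF1R and MEIS1 were at 415 to 596, 35.5 to 60.6 and 82.9 to 99.7 CPM (counts scaled to library size) in MV4-11, but HOXA9 was at 6.87 to 9.02 CPM there against 23.2 to 28.9 in KG-1a. Of 3 listed for KG-1a, PROM1 was at 1.77 to 4.14 CPM in that line, and CD34 and FGFR1 were at 339.7 to 656 and 131 to 167.5 CPM in KG-1a. The leukocyte gene PTPRC was at 709 to 820.5 CPM in KG-1a and 78.8 to 146 in MV4-11, whereas the myeloid genes CD33, MPO and SPI1 reached 1.06, 2.25 and 8.07 CPM at most in KG-1a and were at 102 to 135, 7.69 to 12.6 and 209.5 to 273 CPM in MV4-11. Of 10 markers of other cells, COL1A2, EPCAM and KRT19 had no count in any library, and the T cell gene CD3E was the only one above 1.52 CPM. In KG-1a at 24 h the 10 markers summed to 38.4 and 39.5 CPM untreated, 33.4 and 34.9 under 8CA, then 83 and 70.7 under 8AA, of which all but 0.504 to 1.31 CPM was CD3E. The part of the CD3E difference in the 8AA results at 24 h in KG-1a was not tested. The 2 KG-1a libraries with 8AA at 24 h differed more than any other pair. The chi-square per degree of freedom between their counts was 12.3, against 1.43 to 5.2 elsewhere. Results of the 10 members that lean on either of them are given without it below. For the other genes named, values without either library are not given.

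In untreated cells the level of the members spanned 10.3-fold in MV4-11 and 19.5-fold in KG-1a from lowest to highest. Levels were compared between genes as CPM per kb of the exon length given in the table, over the 4 untreated libraries of a line. For this the CPM were scaled over all 24 libraries. In MV4-11, NUDT21 had the highest median at 56.4 CPM per kb, with CPSF3 at 53.4, PAPOLA at 52.6 and CPSF7 at 48.6, and neighbors among these 4 overlapped in range. CSTF3 at 37.8, CPSF6 at 32, PCF11 at 23.6 and CSTF2 at 17.5 CPM per kb followed without overlap, and PABPN1 at 7.13 and FIP1L1 at 5.5 CPM per kb were lowest. In KG-1a, CPSF7 led with 108 CPM per kb and a range of 106 to 111, above NUDT21 at 75.4, PAPOLA at 51.4 and CPSF3 at 32. The next 3 genes, CPSF6 at 26.7, CSTF2 at 25.2 and PCF11 at 22.7 CPM per kb, overlapped their neighbors. CSTF3 stood at 18.5, and FIP1L1 at 6.09 and PABPN1 at 5.53 CPM per kb overlapped at the bottom.

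**Figure D1:**
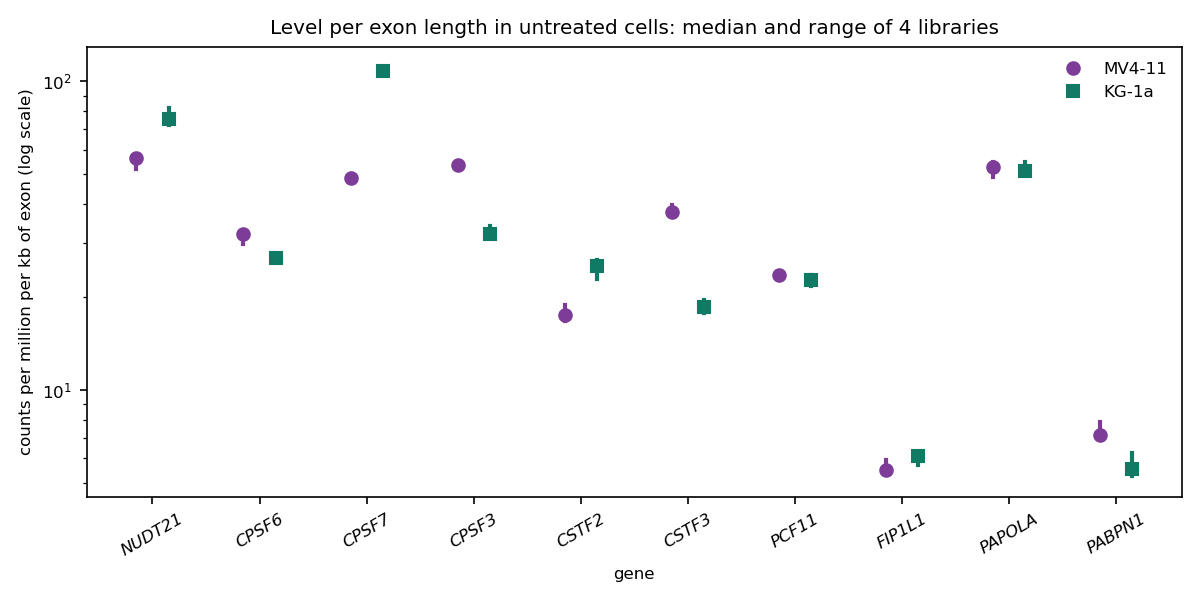
Level of each factor in untreated cells, in CPM per kb of exon on a log axis. Circles are MV4-11 and squares KG-1a (median of 4 libraries, with bars from the lowest to the highest). CPSF7 is the highest in KG-1a at 108, and PCF11 (23.6 and 22.7) and PAPOLA (52.6 and 51.4) each have nearly the same median in MV4-11 and KG-1a.

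The untreated lines differed most in CPSF7 and CSTF3. CPSF7 was lower in MV4-11 than in KG-1a by a log2 difference of −1.14 (SE 0.0399) at 8 h and −1.16 (SE 0.0399) at 24 h, and CSTF3 was higher by 1.12 (SE 0.05) and 0.95 (SE 0.0497). CPSF3 was higher in MV4-11 by 0.75 and 0.70, while CSTF2 was lower by −0.55 and −0.44 and NUDT21 by −0.49 and −0.42. In all, 7 of 10 members were called at each time (edgeR quasi-likelihood test, Benjamini-Hochberg adjusted p under 0.05 over all genes), where 82.2% of all genes tested were called at 8 h and 82% at 24 h. PCF11, FIP1L1 and PAPOLA were not called at either time, with log2 differences of 0.02 and 0.08, −0.17 and −0.06, and −0.07 and 0.09. The smaller calls of CPSF6 (0.21 and 0.27) and PABPN1 (0.51 and 0.22) were lost in part when 1 library was left out. CPSF6 at 8 h was lost without MV4-11 replicate A (0.14, edgeR adjusted p = 0.0999), and PABPN1 at 24 h without MV4-11 replicate B (0.21, edgeR adjusted p = 0.0632) or KG-1a replicate B (0.17, edgeR adjusted p = 0.122). Between 8 h and 24 h without drug, edgeR called 0 of 10 members in either line, where 5.54% of genes were called in MV4-11 and 4.45% in KG-1a. At an unadjusted p under 0.05, 2 members passed in KG-1a and 0 in MV4-11, and the DESeq2 Wald test called 0 in both.

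Drug exposure moved members in both directions, and most changes were small. In bulk RNA, a change in the share of cells that hold an mRNA and a change in its amount per cell cannot be told apart. At 8 h with 8CA in MV4-11, edgeR called 2 members lower and 0 higher, where it called 5.77% of all genes lower and 4.58% higher. In KG-1a at the same time it called 0 members, where 0.181% of genes were lower and 0.7% higher, and 0 members passed an unadjusted p under 0.05 or the DESeq2 Wald test. At 8 h with 8AA, 5 members were lower and 1 higher in MV4-11, against 15.6% and 13.6% of genes. The KG-1a counts for 8AA at 8 h were 3 lower and 1 higher, against 18% and 16.7% of genes. At 24 h in MV4-11, 4 members were lower and 2 higher with 8CA, against 22.7% and 21.2% of genes, and 5 were lower and 1 higher with 8AA, against 15.3% and 13.9% of genes. At 24 h in KG-1a, 4 were lower and 2 higher with 8CA, against 24% and 23.4% of genes. For 8AA at 24 h in KG-1a the split was 2 lower and 4 higher, against 26.6% and 25.4% of genes. The split into lower and higher depended on the scaling in several of these comparisons. Library size only and upper-quartile scaling each gave 1 lower and 1 higher for 8CA at 8 h and 8AA at 24 h in MV4-11. They each gave 3 and 1 for 8AA at 8 h in MV4-11, and 2 and 5 for 8AA at 24 h in KG-1a. For 8CA at 24 h in KG-1a they gave 3 and 3, then 1 and 3. For 8CA at 24 h in MV4-11, library size only gave 3 and 2. The median log2 fold change of the members was between −0.12 and 0.01 in the 24 h comparisons, and that of all genes tested between 0.00216 and 0.0134. The comparisons of a line and time share their untreated libraries and are not independent. With 2 libraries per group, the groups of a gene can lie apart without any change. The share of all genes whose groups lie apart is not given here. Statements below that libraries lie above, below or apart from others therefore describe the values and add nothing to the calls.

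Of 80 tests of the 10 members against untreated cells, 36 were called, and 13 of these calls held under every alternative setting and with any 1 library left out. They belonged to PCF11 (3), PAPOLA (4), CSTF3 (3), CPSF3 (2) and PABPN1 (1). At 24 h, PCF11 was called higher in all 4 comparisons and PAPOLA lower in all 4, where 4.01% of 11485 genes tested in both lines were called higher in all 4 and 7.64% lower. No other member was called on 1 side in all 4 comparisons at 24 h.

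**Figure D2:**
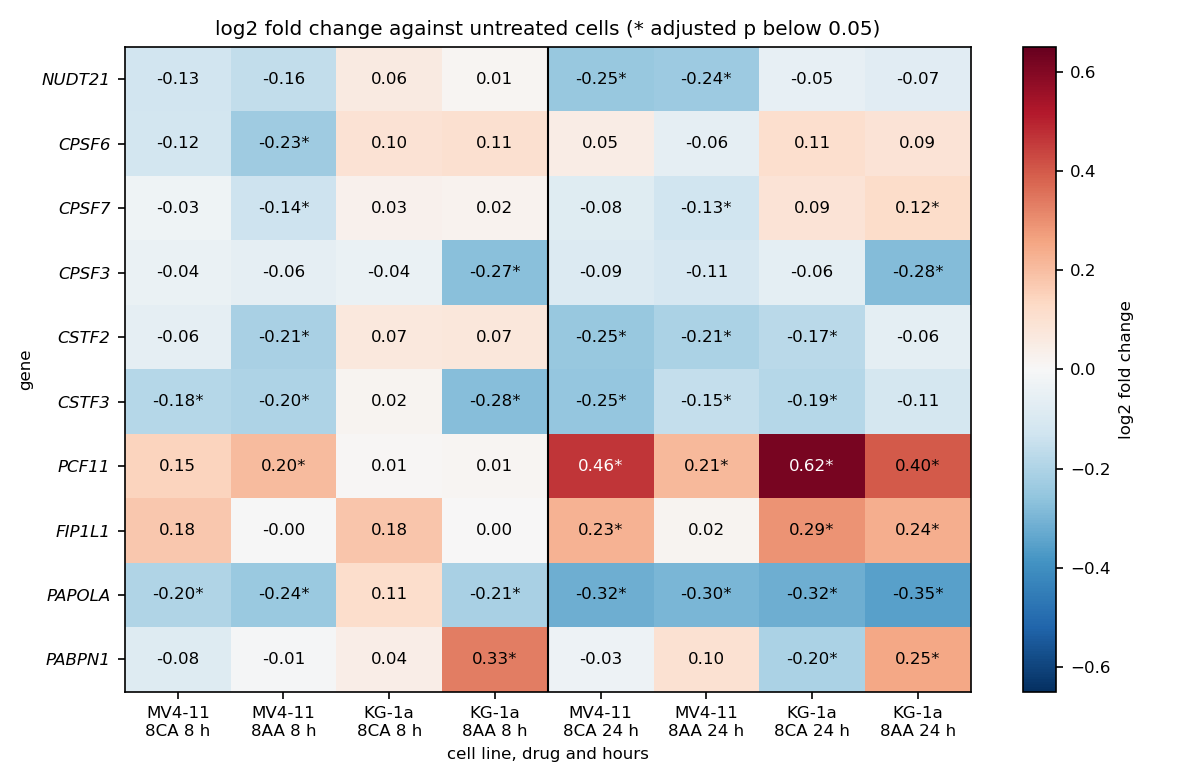
Log2 fold change of each factor (rows) against untreated cells of the same line and hours (columns, 8 h at left and 24 h at right of the line). Red is higher, blue is lower, and a star marks an adjusted p below 0.05. The PCF11 row is above 0 in every column and highest at 24 h with 8CA (0.46 and 0.62), and the PAPOLA row is below 0 in every column but KG-1a 8CA 8 h (0.11).

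PCF11 (chr11:82868137-82896835 in the deposited coordinates, read as hg19, plus strand) encodes a scaffold of cleavage factor II that binds the tail of RNA polymerase II and takes part in termination. In MV4-11 it stood at 142.5 and 146 CPM in untreated cells at 24 h, 204.5 and 193 under 8CA, then 163 and 171 under 8AA. In KG-1a it stood at 149 and 142.5 CPM in untreated cells at 24 h, 221.5 and 226 under 8CA, then 191 and 193 under 8AA. Every treated library at 24 h was above every untreated library of its line, and in each line both 8CA libraries were above both 8AA libraries. At 8 h the values in KG-1a were 147 and 152 CPM untreated, 148 and 153 under 8CA, then 154 and 148 under 8AA, so the groups overlapped. In MV4-11 at 8 h they were 141.5 and 145 untreated, 161 and 157 under 8CA, then 171 and 159 under 8AA, with both drugs above untreated.

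The rise of PCF11 at 24 h was 1.38-fold with 8CA in MV4-11 (log2 fold change 0.46, SE 0.0489, edgeR adjusted p = 2.78e-06) and 1.53-fold in KG-1a (0.62, SE 0.0453, edgeR adjusted p = 4.28e-08). With 8AA it was 1.16-fold in MV4-11 (0.21, SE 0.0493, edgeR adjusted p = 0.00465) and 1.32-fold in KG-1a (0.40, SE 0.0454, edgeR adjusted p = 2.83e-06). The direct comparison placed 8AA below 8CA at 24 h by −0.25 in MV4-11 (95% interval −0.355 to −0.149, edgeR adjusted p = 0.00178) and by −0.22 in KG-1a (−0.314 to −0.125, edgeR adjusted p = 0.00102). The compounds differed in PCF11 at the same dose and time in both lines. At 8 h the differences between the compounds were 0.06 (−0.0479 to 0.161) in MV4-11 and 0.003 (−0.0936 to 0.1) in KG-1a, neither called.

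PCF11 also differed in its timing. The change at 24 h exceeded that at 8 h with 8CA in MV4-11 by 0.32 (SE 0.0696, edgeR adjusted p = 0.006), with 8CA in KG-1a by 0.61 (SE 0.0645, edgeR adjusted p = 1.06e-05) and with 8AA in KG-1a by 0.39 (SE 0.0644, edgeR adjusted p = 0.000814). With 8AA in MV4-11 the difference was 0.01 (−0.141 to 0.156), and PCF11 was already higher at 8 h there (0.20, SE 0.0494, edgeR adjusted p = 0.00572). The 8 h change with 8AA was larger in MV4-11 than in KG-1a by 0.23 (edgeR adjusted p = 0.0233). That line difference was not called with no filter on low counts, nor by the DESeq2 Wald test. The PCF11 calls with 8AA in MV4-11 leaned on single libraries. Its line difference at 8 h was also lost without some libraries outside that comparison, which only share its fit. At 24 h the call was lost without 8AA replicate B (0.17, edgeR adjusted p = 0.0541), and at 8 h without untreated replicate A (0.18, edgeR adjusted p = 0.0528) or 8AA replicate A (0.15, edgeR adjusted p = 0.0645), while the line difference at 8 h was lost on leaving out any of 7 libraries (0.16 to 0.21, edgeR adjusted p = 0.0849 to 0.135).

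**Figure D3:**
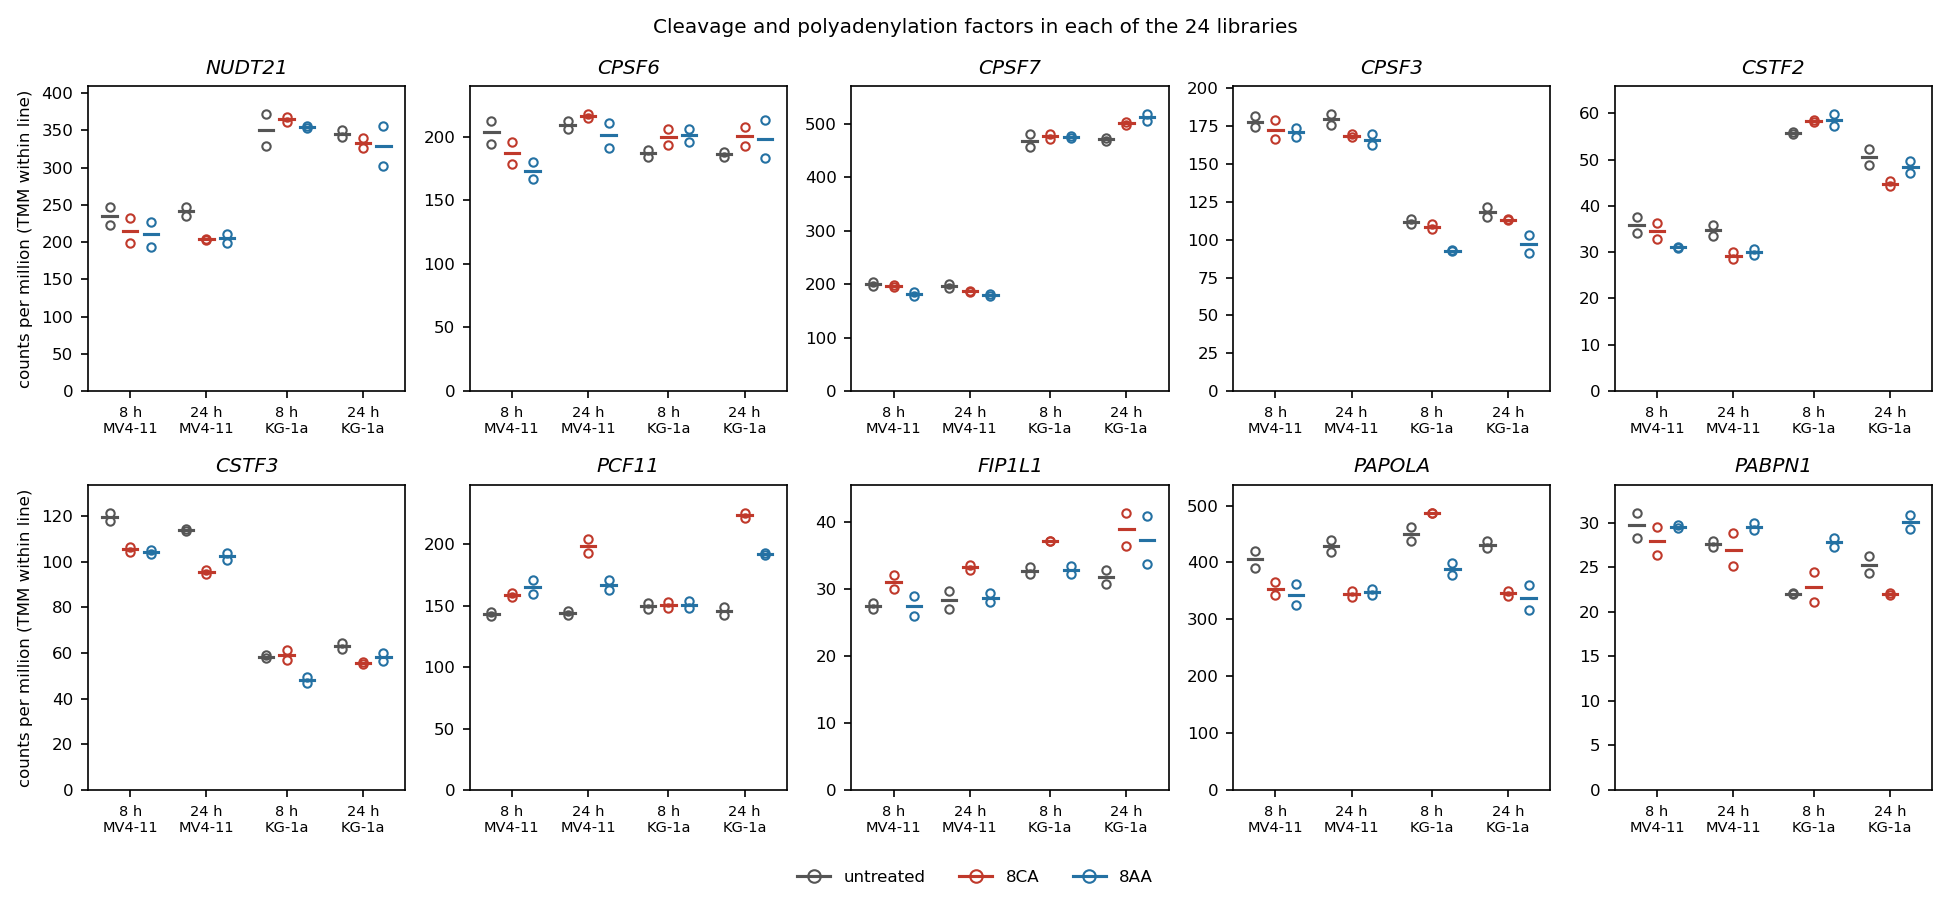
CPM of each factor in each of the 24 libraries (open circles), with the group mean as a bar, grouped by line and hours and colored by treatment. Levels are scaled within a line. PCF11 in KG-1a lies between 142.5 and 154 in all groups but 8CA (221.5 and 226) and 8AA (191 and 193) at 24 h, and PAPOLA at 24 h is below the untreated libraries in all 8 treated ones.

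PAPOLA (chr14:96968713-97033453, hg19, plus strand) encodes the canonical nuclear poly(A) polymerase. Untreated cells at 24 h had 419 and 439 CPM in MV4-11, with 349.7 and 339 after 8CA and 354 and 343.5 after 8AA. In KG-1a the untreated values at 24 h were 437 and 425 CPM, with 341 and 351 after 8CA and 316 and 359.6 after 8AA. In both lines every treated library at 24 h was below every untreated one. The fall at 24 h was −0.32 with 8CA (SE 0.0544, edgeR adjusted p = 0.000243) and −0.30 with 8AA (SE 0.0545, edgeR adjusted p = 0.000769) in MV4-11, and −0.32 (SE 0.0553, edgeR adjusted p = 0.000225) and −0.35 (SE 0.0553, edgeR adjusted p = 6.59e-05) in KG-1a. With any 1 library left out, the fall with 8AA in KG-1a was between −0.45 and −0.26. The differences between the compounds at 24 h were 0.02 (−0.0986 to 0.133) in MV4-11 and −0.04 (−0.153 to 0.0821) in KG-1a, neither called.

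At 8 h the compounds parted in KG-1a. PAPOLA was at 438 and 462 CPM in untreated KG-1a, 487 and 487 under 8CA, then 379 and 399 under 8AA, so the 8CA libraries were the highest and the 8AA libraries the lowest. The 8CA value was not called against untreated (0.11, 95% interval −0.00346 to 0.23, edgeR adjusted p = 0.399), and 8AA was below 8CA by −0.32 (SE 0.0549, edgeR adjusted p = 0.000421). The change with 8CA in KG-1a was lower at 24 h than at 8 h by −0.43 (SE 0.0779, edgeR adjusted p = 0.000976). In MV4-11 at 8 h PAPOLA fell with both drugs, from 420.3 and 391 CPM to 365 and 343 with 8CA (−0.20, edgeR adjusted p = 0.0331) and 361 and 325 with 8AA (−0.24, edgeR adjusted p = 0.00355). The 8 h calls against untreated were each lost without 1 of 2 libraries. Those were untreated replicate A (edgeR adjusted p = 0.217) or 8CA replicate B (0.195) for 8CA in MV4-11, untreated replicate A (0.0503) or 8AA replicate B (0.0555) for 8AA in MV4-11, and untreated replicate B (0.0817) or 8AA replicate A (0.0925) for 8AA in KG-1a.

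PABPN1 (chr14:23789397-23795394, hg19, plus strand) encodes the nuclear poly(A)-binding protein, which stimulates PAPOLA and restrains the use of proximal sites. It was among the lowest members in level, and its difference between the compounds in KG-1a at 24 h was the largest of the 40 tested. In KG-1a at 24 h it stood at 26.3 and 24.3 CPM untreated, 21.8 and 22.1 under 8CA, then 30.8 and 29.3 under 8AA, with no overlap among the 3 groups. The 8AA libraries were above the 8CA libraries by 0.45 (95% interval 0.287 to 0.62, edgeR adjusted p = 0.000262). At 8 h in KG-1a the values were 21.95 and 22.1 CPM untreated, 21.05 and 24.5 under 8CA, then 28.3 and 27.2 under 8AA, and 8AA was above untreated by 0.33 (SE 0.0793, edgeR adjusted p = 0.00423) and above 8CA by 0.29 (SE 0.0786, edgeR adjusted p = 0.0117).

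The other PABPN1 calls rested on single libraries. The rise with 8AA at 24 h in KG-1a (0.25, edgeR adjusted p = 0.0135) was lost without untreated replicate B (0.19, edgeR adjusted p = 0.13) or 8AA replicate A (0.21, edgeR adjusted p = 0.0512), and the 8 h difference between the compounds without 8CA replicate A (0.18, edgeR adjusted p = 0.185) or 8AA replicate A (0.26, edgeR adjusted p = 0.0861). The fall with 8CA at 24 h (−0.20, edgeR adjusted p = 0.0492) was lost under 6 of 8 alternative settings and in 7 of 12 refits without 1 library, among them all 4 libraries compared (−0.26 to −0.16, edgeR adjusted p = 0.0566 to 0.238). In MV4-11 PABPN1 was called in none of the 4 drug comparisons, with log2 fold changes from −0.08 to 0.10. PABPN1 shares its exons with the read-through gene BCL2L2-PABPN1, and no source used here states how reads in shared exons were assigned, which leaves its counts uncertain.

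CPSF3 (chr2:9563666-9613239, hg19, plus strand), the endonuclease that makes the cut, was lower in KG-1a with 8AA. At 8 h it was at 114 and 110.1 CPM untreated, 107 and 111 under 8CA, then 92.5 and 93.2 under 8AA. At 24 h it was at 121.5 and 115 CPM untreated, 113 and 113 under 8CA, then 103 and 91.2 under 8AA. In both cases the 8AA libraries were the lowest and did not overlap with the others. The fall with 8AA was −0.27 at 8 h (SE 0.0575, edgeR adjusted p = 0.00198) and −0.28 at 24 h (SE 0.0573, edgeR adjusted p = 0.000714). With any 1 library left out, the fall at 24 h was between −0.38 and −0.20. 8AA was also below 8CA, by −0.23 at 8 h (edgeR adjusted p = 0.00739) and −0.22 at 24 h (edgeR adjusted p = 0.00615). The 8 h difference was lost without 8CA replicate B (−0.20, edgeR adjusted p = 0.0743) or 8AA replicate A (−0.22, edgeR adjusted p = 0.0549), whereas that at 24 h stayed called in each refit without 1 library (−0.31 to −0.13).

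CPSF3 was not called with 8CA in either line, nor with either drug in MV4-11, where its 12 values lay between 163 and 183 CPM. The 8 h change with 8AA differed between the lines by 0.25 (MV4-11 minus KG-1a, edgeR adjusted p = 0.0324). That call was lost under 4 of 7 alternative settings and on leaving out any of 8 libraries (0.18 to 0.28, edgeR adjusted p = 0.0543 to 0.143). Some of those 8 libraries are outside that comparison and only share its fit. At 24 h the line difference was 0.19 (0.0339 to 0.348, edgeR adjusted p = 0.0752).

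FIP1L1 (chr4:54243820-54326103, hg19, plus strand), which binds U-rich RNA and tethers PAPOLA to CPSF, was called higher in 3 of 4 comparisons at 24 h. In MV4-11 it was at 27.03 and 29.8 CPM untreated, 32.95 and 33.6 under 8CA, then 28.1 and 29.4 under 8AA. In KG-1a it was at 32.8 and 30.7 CPM untreated, 41.4 and 36.45 under 8CA, then 40.9 and 33.7 under 8AA, the widest gap between libraries being in the 8AA pair. The changes were 0.23 with 8CA in MV4-11 (edgeR adjusted p = 0.0195), and 0.29 with 8CA (edgeR adjusted p = 0.0116) and 0.24 with 8AA (edgeR adjusted p = 0.033) in KG-1a.

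None of the FIP1L1 calls held when each library was left out. With 8CA in MV4-11 the call was lost without untreated replicate A or either 8CA library (0.17 to 0.24, edgeR adjusted p = 0.0592 to 0.161), and in KG-1a without untreated replicate B (0.25, edgeR adjusted p = 0.101) or 8CA replicate A (0.20, edgeR adjusted p = 0.158). With 8AA in KG-1a the value was 0.08 without 8AA replicate A (edgeR adjusted p = 0.416), and the call was also lost without either untreated library at 24 h (0.19 and 0.27) or untreated replicate A at 8 h (0.22). With 8AA at 24 h in MV4-11 the value was 0.02 (−0.142 to 0.176), and 8AA was below 8CA by −0.21 there (−0.366 to −0.0558, edgeR adjusted p = 0.0511), which was not called.

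CSTF3 (chr11:33106130-33183037, hg19, minus strand), the scaffold of CstF, was called lower in 6 of 8 comparisons. In MV4-11 it was at 118 and 121.5 CPM untreated at 8 h, 104 and 106.5 under 8CA, then 103 and 105 under 8AA. At 24 h it was at 114 and 113 CPM untreated, 94.7 and 96.5 under 8CA, then 101 and 104 under 8AA. In this line the treated libraries were below the untreated ones at both times. The changes that held in every alternative were −0.25 with 8CA at 24 h (SE 0.0441, edgeR adjusted p = 0.000284) and −0.20 with 8AA at 8 h (SE 0.044, edgeR adjusted p = 0.00315).

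In KG-1a, CSTF3 differed between the compounds at 8 h. It was at 59.3 and 57.6 CPM untreated, 57.05 and 61.3 under 8CA, then 49.65 and 46.85 under 8AA, with the 8AA libraries apart. 8AA was below untreated by −0.28 (SE 0.0596, edgeR adjusted p = 0.00211) and below 8CA by −0.29 (SE 0.0594, edgeR adjusted p = 0.00162). At 24 h the KG-1a values were 61.96 and 64.6 CPM untreated, 56.04 and 55.2 under 8CA, then 60.2 and 56.6 under 8AA. The fall with 8CA was −0.19 (edgeR adjusted p = 0.0171) and the value with 8AA −0.11 (edgeR adjusted p = 0.116). The other 3 calls in the 2 lines were lost without single libraries. With 8CA at 8 h in MV4-11 (−0.18) these were untreated replicate B and 8CA replicate A (edgeR adjusted p = 0.0753 and 0.0675), with 8AA at 24 h in MV4-11 (−0.15) untreated replicate A and 8AA replicate A (0.0698 and 0.0782), and with 8CA at 24 h in KG-1a untreated replicate B and both 8CA libraries (0.0586 to 0.119).

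CSTF2 (chrX:100075348-100095923, hg19, plus strand) encodes the CstF subunit that binds GU-rich RNA downstream of the cut. It was called lower in MV4-11 with 8CA at 24 h (−0.25, edgeR adjusted p = 0.013) and with 8AA at 8 h (−0.21, edgeR adjusted p = 0.0419) and 24 h (−0.21, edgeR adjusted p = 0.0449), as well as in KG-1a with 8CA at 24 h (−0.17, edgeR adjusted p = 0.0242). At 24 h in MV4-11 its values were 35.9 and 33.4 CPM untreated, 29.96 and 28.5 under 8CA, then 29.4 and 30.7 under 8AA, with all 4 treated libraries below the untreated ones. In KG-1a it was at 48.9 and 52.2 CPM untreated, 45.45 and 44.2 under 8CA, then 49.6 and 47.1 under 8AA at 24 h. The change with 8CA in KG-1a was lower at 24 h than at 8 h by −0.24 (SE 0.0819, edgeR adjusted p = 0.0444).

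All 5 of these CSTF2 calls were lost when single libraries were left out. Those against untreated were lost without untreated replicate A or 8CA replicate B (edgeR adjusted p = 0.124 and 0.0899) for 8CA in MV4-11, without untreated replicate B or either 8AA library (0.11 to 0.266) for 8AA at 8 h, without any of the 4 libraries compared (0.0508 to 0.238) for 8AA at 24 h, and without untreated replicate B or either 8CA library (0.0601 to 0.19) for 8CA in KG-1a. The time difference was lost in 9 of 12 refits without 1 library (−0.26 to −0.20, edgeR adjusted p = 0.0583 to 0.173). CSTF2T, an intronless paralog of CSTF2 that reads could also match, was at −0.01 and −0.04 with 8CA and 8AA at 24 h in MV4-11, not called, where CSTF2 was called lower. In KG-1a at 24 h it was at −0.11 with 8CA (edgeR adjusted p = 0.0648) and −0.12 with 8AA (edgeR adjusted p = 0.0482), and its change with 8CA was lower at 24 h than at 8 h by −0.21 (edgeR adjusted p = 0.0274).

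None of the calls of the CFIm subunits against untreated cells held in every refit. NUDT21 (chr16:56463048-56485261, hg19, minus strand), which contacts UGUA, was at 235.5 and 248 CPM in untreated MV4-11 at 24 h, 203 and 204 under 8CA, then 211 and 198.5 under 8AA, so the treated libraries lay below the untreated ones. The changes of −0.25 with 8CA (SE 0.0766, edgeR adjusted p = 0.0162) and −0.24 with 8AA (SE 0.0768, edgeR adjusted p = 0.0292) were called. They were lost without untreated replicate B or either 8CA library (edgeR adjusted p = 0.0724 to 0.128) and without any of the 4 libraries compared (0.0602 to 0.179), respectively. In KG-1a NUDT21 was not called in any drug comparison, with log2 fold changes from −0.07 to 0.06 and intervals that reached no further than −0.216 and 0.199. The line difference of the changes at 24 h, −0.17 with 8CA and −0.14 with 8AA, was not called (edgeR adjusted p = 0.378 and 0.407).

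CPSF7 (chr11:61170120-61197464, hg19, minus strand), the CFIm partner that was the most abundant member in KG-1a, moved in opposite directions in the 2 lines with 8AA. At 24 h it was at 200 and 193.5 CPM in untreated MV4-11 against 182 and 178 with 8AA (−0.13, SE 0.0434, edgeR adjusted p = 0.0351), and at 468 and 475 CPM in untreated KG-1a against 519 and 506 with 8AA (0.12, SE 0.0408, edgeR adjusted p = 0.0209). Treated libraries were below the untreated ones in MV4-11 and above them in KG-1a. The difference between these changes was −0.23 (95% interval −0.345 to −0.113, edgeR adjusted p = 0.00393), and it stayed called under each of 7 alternative settings and in each of 24 refits without 1 library (−0.32 to −0.20). The calls within a line did not. That in MV4-11 was lost without any of the 4 libraries compared (−0.16 to −0.11, edgeR adjusted p = 0.0546 to 0.191), and that in KG-1a without either untreated library (0.10 and 0.13, edgeR adjusted p = 0.174 and 0.0728). With 8CA at 24 h, CPSF7 stood at 187 and 186 CPM in MV4-11 and 503 and 499 CPM in KG-1a. The 8CA libraries thus also lay below the untreated ones in MV4-11 and above them in KG-1a. With 8CA neither change was called, nor was the difference between the lines.

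At 8 h CPSF7 and CPSF6 were called lower with 8AA in MV4-11 and in none of the other 3 drug comparisons. CPSF7 changed by −0.14 (edgeR adjusted p = 0.0272) and CPSF6 (chr12:69633317-69668138, hg19, plus strand), the other CFIm partner of NUDT21, by −0.23 (SE 0.0608, edgeR adjusted p = 0.00934), from 212 and 194.5 CPM to 179.9 and 167. Both calls were lost without untreated replicate A or 8AA replicate B, at −0.11 for CPSF7 (edgeR adjusted p = 0.183 and 0.185) and −0.17 and −0.18 for CPSF6 (edgeR adjusted p = 0.113 and 0.0932). CPSF6 in KG-1a was at 0.11 with 8AA at 8 h, and the line difference of −0.30 (SE 0.0925, edgeR adjusted p = 0.0397) was lost on leaving out any of 8 libraries (−0.33 to −0.23, edgeR adjusted p = 0.0505 to 0.183). Some of those 8 libraries are outside that comparison and only share its fit. CPSF6 was not called at 24 h, with log2 fold changes from −0.06 to 0.11.

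Set against each other at the same dose and hours, 8AA and 8CA differed in 8 of 40 tests of the members. In MV4-11, edgeR called 0 of 10 at 8 h, where 6.66% of genes were called and the DESeq2 Wald test called 0 members, and 1 of 10 at 24 h (21.2% of genes). At an unadjusted p under 0.05, 2 members passed at 8 h in MV4-11. In KG-1a, 4 of 10 were called at 8 h (30.4% of genes) and 3 of 10 at 24 h (42% of genes). The genes were PCF11 at 24 h in both lines, CPSF3 and PABPN1 at both times in KG-1a, and CSTF3 and PAPOLA at 8 h in KG-1a. NUDT21, CPSF6, CPSF7, CSTF2 and FIP1L1 were called in none of the 4 comparisons of the compounds. For NUDT21 the 4 intervals of the difference ran between −0.199 and 0.173, and for FIP1L1 between −0.366 and 0.122.

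**Figure D4:**
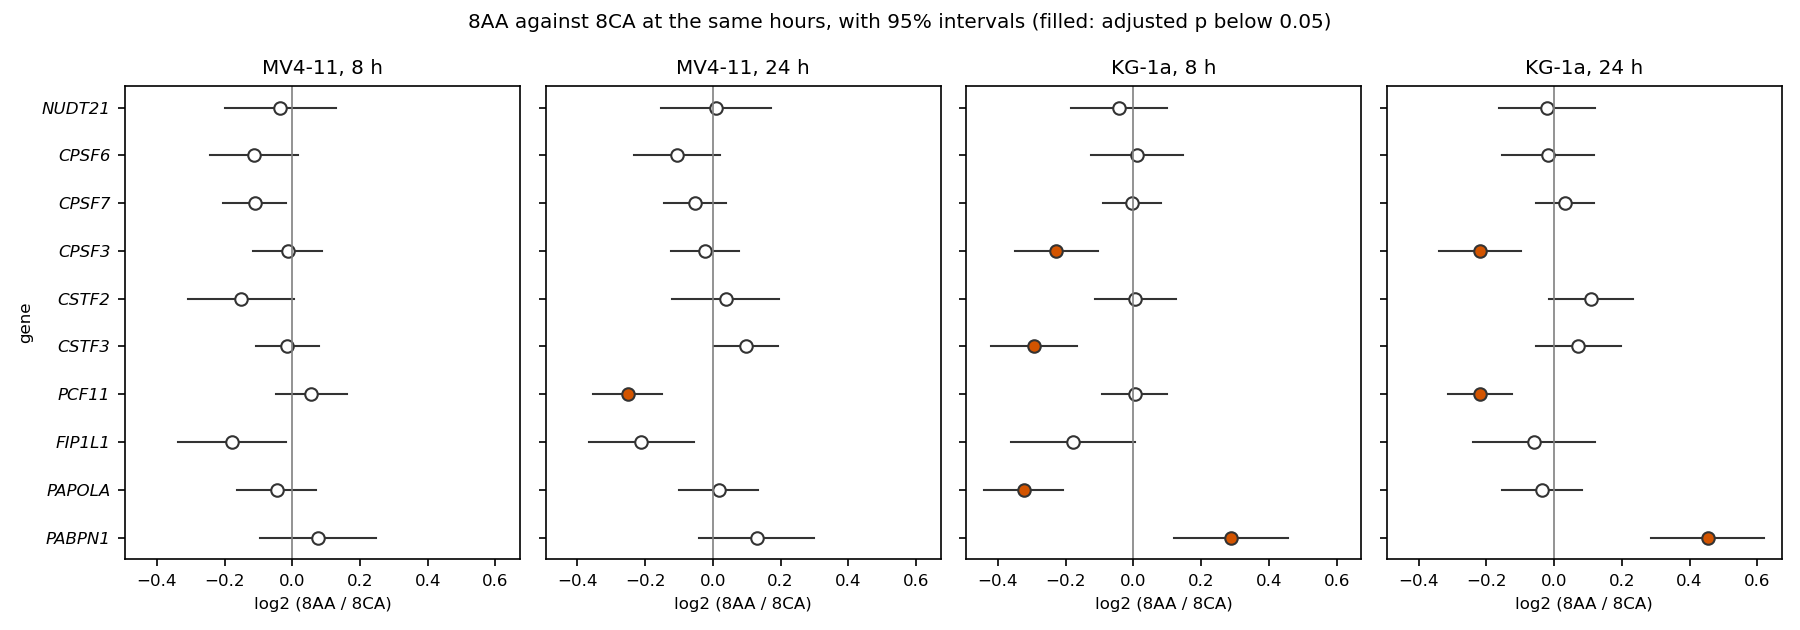
Difference between 8AA and 8CA for each factor (log2 of 8AA over 8CA) with 95% intervals, in each line and at each time. Filled points have an adjusted p below 0.05. PABPN1 in KG-1a lies to the right (0.29 and 0.45), and PCF11 at 24 h to the left in both lines (−0.25 and −0.22).

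Between times, edgeR called 1 of 10 members with 8CA in MV4-11 (16.3% of genes) and 3 of 10 in KG-1a (23.9% of genes), and 1 of 10 with 8AA in KG-1a (18.3% of genes), all described above. With 8AA in MV4-11 it called 0 of 10 (4.63% of genes), with 0 at an unadjusted p under 0.05 and 0 by the DESeq2 Wald test. Between lines, 3 of 10 changes with 8AA differed at 8 h (11.1% of genes) and 1 of 10 at 24 h (22.3% of genes). With 8CA, 0 of 10 differed at 8 h (1.15% of genes) and 0 of 10 at 24 h (11.2% of genes) by edgeR. The DESeq2 Wald test called 1 and 0, and 4 members at 8 h and 1 at 24 h passed an unadjusted p under 0.05.

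The members did not vary as a block over the libraries. With each value taken less the mean of its line, over 24 libraries in which treatment groups recur, Pearson's r of log2 CPM was highest for NUDT21 with PAPOLA at 0.755, and 0.678 for PCF11 with FIP1L1 and 0.677 for CPSF3 with CSTF3. It was lowest for CSTF2 with PCF11 at −0.801 and for PCF11 with PAPOLA at −0.756. Among 8523 genes, those most like NUDT21 by this measure were GTF2A1 (r = 0.916), GMFB (0.904) and PARPBP (0.904), and those most like PCF11 were NBR1 (0.965), ZFAS1 (0.954) and CCDC171 (0.952). These r values describe libraries that share treatments and have no test.

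Other genes of 3′ end formation were called in both directions. The shares of all genes called at 24 h, against which each list's counts are read, were 22.7% lower and 21.2% higher with 8CA in MV4-11, 15.3% and 13.9% with 8AA in MV4-11, 24% and 23.4% with 8CA in KG-1a, and 26.6% and 25.4% with 8AA in KG-1a. Of 13 further core factors, 2 were lower and 2 higher at 24 h with 8CA in MV4-11, 2 lower and 1 higher with 8AA in MV4-11, 4 lower and 1 higher with 8CA in KG-1a, and for 8AA in KG-1a 5 lower and 2 higher. Their median log2 fold changes were −0.07, −0.04, −0.09 and −0.09. RBBP6, an activator of the cleavage step, was the highest in KG-1a at 0.47 with 8CA (SE 0.0401, edgeR adjusted p = 2.14e-07) and 0.35 with 8AA (SE 0.0401, edgeR adjusted p = 3.35e-06). CPSF4, the CPSF subunit that helps to read AAUAAA, was the lowest there at −0.30 (SE 0.0977, edgeR adjusted p = 0.0206) and −0.42 (SE 0.098, edgeR adjusted p = 0.00188). In MV4-11 the extremes were PPP1CA (−0.21) and PAPOLG (0.25) with 8CA and CPSF2 (−0.18) and CPSF1 (0.12) with 8AA. None of the 13 was called lower, or higher, in every comparison at 24 h.

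Of 15 genes of tail binding and deadenylation, 2, 1, 4 and 5 were lower and 6, 3, 6 and 4 higher at 24 h, in the order MV4-11 8CA, MV4-11 8AA, KG-1a 8CA and KG-1a 8AA. Many of these counts, like those of the lists that follow, lie near the shares over all genes and are given as a description. PAN2, the catalytic subunit of a poly(A) nuclease, was the highest with 8AA in MV4-11 (0.42, SE 0.0484) and with 8CA (0.58, SE 0.0885) and 8AA (1.02, SE 0.0853) in KG-1a. Its partner PAN3 was the highest with 8CA in MV4-11 (0.53, SE 0.0724). TOE1, a nuclear deadenylase of small RNAs, was the lowest in all 4, from −0.48 with 8CA in MV4-11 to −0.33 with 8AA in MV4-11. All of these had edgeR adjusted p of 0.00407 or less. PAN2 and PAN3 were each called higher in every comparison at 24 h.

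Most histone mRNAs lack a poly(A) tail, and their 3′ ends are formed with some factors of their own, of which 5 were listed. At 24 h 1, 2, 2 and 3 were lower and 1, 0, 3 and 0 higher, in the same order. SLBP, which binds the histone stem-loop, was the lowest in MV4-11 (−0.40 with 8CA and −0.37 with 8AA), and LSM10 in KG-1a (−0.42 and −0.49). SLBP was also called lower in KG-1a, at −0.29 with 8CA and −0.37 with 8AA. The highest called were ZNF473 (0.20) with 8CA in MV4-11 and LSM11 (0.33) with 8CA in KG-1a. Counts of 69 histone genes, here scaled to library totals only, summed to 28.3 to 63.8 CPM in the 24 libraries. At 24 h the sum was 47.4 and 51.7 CPM untreated, 58 and 60.5 under 8CA, then 63.8 and 58.5 under 8AA in MV4-11. In KG-1a it was 34.1 and 37.6 CPM untreated, 39.1 and 40.5 under 8CA, then 41.3 and 44.5 under 8AA. Every treated library at 24 h was above the untreated ones of its line, and the part of this difference in the results of the members was not tested.

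Of 14 genes of termination and site choice, 5, 5, 4 and 4 were lower and 3, 0, 4 and 1 higher. ELAVL1, a U-rich RNA-binding protein, was the lowest with 8CA in MV4-11 (−0.47), with 8AA in MV4-11 (−0.34) and with 8CA in KG-1a (−0.41), and XRN2, the nuclease that follows the cut, was the lowest with 8AA in KG-1a (−0.40, SE 0.0442). ELAVL1 was also called lower with 8AA in KG-1a. CDK13 was the highest with 8AA in KG-1a (0.23). Of 14 Integrator subunits, which cut small nuclear RNAs, 4, 3, 4 and 6 were lower and 3, 1, 2 and 2 higher. The lowest were INTS5 (−0.22), INTS8 (−0.26), INTS8 (−0.32) and INTS10 (−0.50), and the highest INTS4 (0.24), INTS3 (0.18), INTS7 (0.36) and INTS7 (0.19). INTS8 was called lower in every comparison at 24 h.

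**Figure D5:**
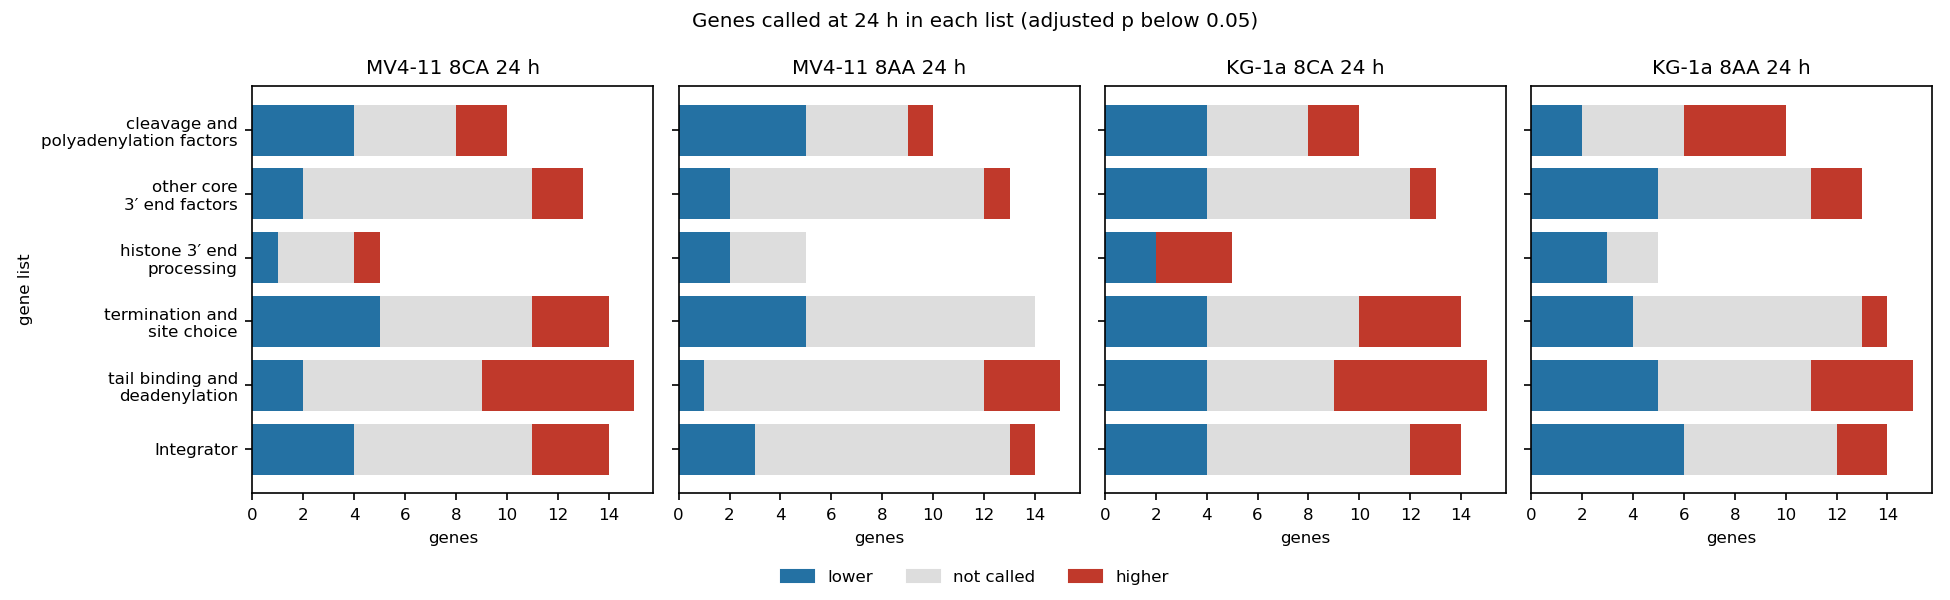
Number of genes called lower (blue), not called (grey) and called higher (red) at 24 h in each list, for the 4 comparisons with untreated cells. Each list holds both directions in at least 2 comparisons, and the 10 cleavage and polyadenylation factors show 4 and 2, 5 and 1, 4 and 2, and 2 and 4 genes lower and higher.

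NUDT21 and the other CFIm subunits are known to act on MAT2A, the methionine adenosyltransferase whose mRNA is also controlled by METTL16. Among the values beside the members, MAT2A was lower at 8 h in MV4-11 with 8CA (−0.36, SE 0.0404) and 8AA (−0.41, SE 0.0404) while NUDT21 was not called there (−0.13 and −0.16). It was also lower at 8 h in KG-1a with 8CA (−0.24, edgeR adjusted p = 0.00863) and 8AA (−0.41, edgeR adjusted p = 2.35e-06). At 24 h in MV4-11, where NUDT21 was called lower, MAT2A was at −0.06 and 0.002, not called. Those NUDT21 calls were lost without single libraries. The NUDT21 changes at 8 h and 24 h in this line were not called different with either drug. A link between the NUDT21 and MAT2A values was not tested. In KG-1a MAT2A was lower at 24 h with 8CA (−0.23, SE 0.0403) and 8AA (−0.43, SE 0.0404), with NUDT21 at −0.05 and −0.07, not called. METTL16 was lower with 8AA at 8 h in MV4-11 (−0.29, edgeR adjusted p = 0.000683) and was not called in KG-1a (−0.02, edgeR adjusted p = 0.8). At 24 h it was lower with 8AA, by −0.17 in MV4-11 (edgeR adjusted p = 0.0205) and −0.31 in KG-1a (edgeR adjusted p = 0.000307), and was not called with 8CA at 8 h (0.01 and 0.08) or 24 h (−0.09 and 0.12).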

How the data were processed

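RNA-seq libraries of MV4-11 and KG-1a cells were deposited as 1 table of raw read counts per gene, made by the authors. The submitters' processing notes name Trimmomatic, STAR 2.6.0, HTSeq 0.11.1 and edgeR, and the builds hg19 and hg38 with no role. Of 21956 genes matched by symbol, 3.65% start within 1000 bases of their GRCh38 position, and none of the members do, so the deposited coordinates were read as hg19. No source used here states whether poly(A) RNA was selected or strand was used in counting, so reads of overlapping genes on opposite strands may be mixed.

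Genes were filtered with filterByExpr (minimum count 10), scaled by TMM and tested with edgeR 4.0.16 (R 4.3.3) by the quasi-likelihood F test on the counts, with 1 coefficient per group over the 12 libraries of a line, or all 24 for differences between lines. P-values were adjusted by Benjamini-Hochberg over all genes tested, two-sided, at 0.05, and a gene past this is called lower or higher. Intervals are 95% and cover the spread of the fit. Replicate libraries had a coefficient of variation of 0.0422 (MV4-11) and 0.0418 (KG-1a). Library totals had medians of 22104498.5 and 20616192 counts. Simulated data with known changes were used to test the scripts. DESeq2 1.42.0 (Wald test), RLE, upper-quartile and library-size scaling, other filters, the replicate letter as a block, the fit over all 24 libraries and leaving out each library were alternatives.

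The genes named are the 10 members, MAT2A and METTL16, the called genes with the lowest and highest log2 fold change of each list at 24 h, and the 3 genes most like NUDT21 and PCF11; CSTF2T was named after its value was seen, as the paralog of CSTF2. Some listed genes are not reported here. The members and lists were chosen with earlier results of these data known. For correlations, log2 CPM used a pseudocount of 0.5 and genes with a mean of at least 3. Transcript ends came from GENCODE transcripts on GRCh38, 1 principal transcript per gene.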

Additional observations from a re-analysis of the deposited data

Results flagged for a closer look

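The following member effects differed between times or between lines by a test of the difference itself (edgeR, adjusted over all genes). Between times, the PCF11 change with 8CA was larger at 24 h than at 8 h by 0.32 in MV4-11 (adjusted p = 0.006) and by 0.61 in KG-1a (adjusted p = 1.06e-05), and with 8AA by 0.39 in KG-1a (adjusted p = 0.000814). In KG-1a with 8CA the PAPOLA change was lower at 24 h by −0.43 (adjusted p = 0.000976) and the CSTF2 change by −0.24 (adjusted p = 0.0444). Between lines with 8AA, as MV4-11 minus KG-1a, the changes differed at 8 h by −0.30 for CPSF6 (adjusted p = 0.0397), 0.25 for CPSF3 (adjusted p = 0.0324) and 0.23 for PCF11 (adjusted p = 0.0233), and at 24 h by −0.23 for CPSF7 (adjusted p = 0.00393). The 3 line differences at 8 h and that of CSTF2 were lost on leaving out single libraries, and the other 5 were not.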

How the results depend on the processing

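No value of a member changed direction among called results under any alternative. Of the 80 tests against untreated cells, from 67 (upper-quartile scaling) to 80 (RLE) kept their side of the threshold under a given alternative, with 10 calls lost under upper-quartile scaling, 9 under library size only and 7 under the DESeq2 Wald test. The count of members called with 8AA at 24 h in MV4-11 was 6, and 2 under library size only and 2 under upper-quartile scaling. For 8AA against 8CA at 24 h it went from 1 to 2 in MV4-11 under RLE, library size only, upper quartile, no filter and at least 10 counts in every library, and from 3 to 5 in KG-1a under library size only. For differences between lines it went from 0 to 1 with 8CA at 8 h under no filter and DESeq2, from 3 to 5 (at least 10 counts) and 1 (DESeq2) with 8AA at 8 h, and from 1 to 2 (RLE, library size only, upper quartile, at least 10 counts, DESeq2) or 3 (no filter) with 8AA at 24 h. With no filter, the split of the line differences with 8AA at 8 h went from 1 lower and 2 higher to 4 and 0. The causes of these moves were not tested. Library size only moved the median of all genes in KG-1a 8AA at 24 h to 0.108.

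With any 1 library left out, a lone library being taken to vary like the other groups, the counts against untreated at 8 h ranged from 1 to 2 (MV4-11 8CA), 2 to 6 (MV4-11 8AA), 0 to 1 (KG-1a 8CA) and 3 to 5 (KG-1a 8AA), and at 24 h from 3 to 6, 2 to 6, 2 to 8 and 3 to 7 in the same order. For 8AA against 8CA they ranged from 1 to 2 in MV4-11 at 24 h, and in KG-1a from 2 to 5 at 8 h and 3 to 6 at 24 h. Between times they ranged from 2 to 4 with 8CA and 1 to 4 with 8AA in KG-1a, and between lines from 0 to 1 with 8CA at each time and, with 8AA, from 0 to 5 at 8 h and 1 to 3 at 24 h. For untreated lines they ranged from 6 to 8 at 8 h and 6 to 9 at 24 h.

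The replicate letters A and B recur in every group, but nothing in the labels pairs the libraries, and same-lettered libraries deviated together only in part (median r of 15 pairs of groups 0.366 in MV4-11, from −0.401 to 0.609, and 0.0882 in KG-1a, from −0.3 to 0.51). With the letter as a replicate block, 77 of 80 tests against untreated kept their side and 3 became called. The count for 8AA against 8CA at 24 h in MV4-11 went from 1 to 2, and no other count of members called moved by over 1.5 times.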
